A study of Homo sapiens with 6 samples.

Results

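Replication-dependent histone genes were followed in UMUC3 tumours with and without knockdown of GANAB. They were chosen by symbol, as every H1, H2A, H2B, H3 or H4 gene that carries a name of the clustered families (the H1-1 to H1-6 genes, the H2AC, H2BC, H3C and H4C genes and H4-16, or their older HIST names). The rule found 66 genes of 60233 in the deposited table of TPM values (expression per transcript length, scaled to 1 total in each library), of which 56 were also among the 21503 genes of the count table. UMUC3 is an established human bladder carcinoma cell line. The cells had been placed in the bladders of C57 nude mice, which lack most T cells, and stayed there for 14 days. The control group held 3 libraries of cells labelled control, and the knockdown group 3 libraries of cells labelled GANAB knock down. Both groups thus shared the line, the host, the site and the time. The labels give neither the means of knockdown, nor whether the cells were 1 clone, nor whether each library had its own mouse. The p-values therefore measure the spread between these libraries, and that spread may be technical only.

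Histones are the proteins around which DNA is wound: H2A, H2B, H3 and H4 form the core of the nucleosome, and H1 binds the linker DNA between nucleosomes. The replication-dependent genes supply histones for new DNA and are transcribed mainly in S phase. Most of their mRNAs have no poly(A) tail and end instead just after a short stem-loop, which is bound by SLBP and is cut with the help of the U7 small nuclear ribonucleoprotein. Some of these genes can also make longer, polyadenylated transcripts that read through the stem-loop. How much of each kind a library holds depends on how its RNA was selected, and the labels do not name the selection step.

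The stem-loop is shown because it is the shared mark of these mRNAs and because gene models differ in whether they extend beyond it. The letters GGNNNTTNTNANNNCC were searched for in the 120 bases after the stop codon, on the transcribed strand, in GENCODE release 29 transcripts (GRCh38). Genes counted had a model with at least 16 bases after the stop codon, the length of the motif, so some models were shorter than the full 120 bases. The motif was present in 28 of the 32 such histone genes, and in 47 of 19053 other coding genes (0.247%). The models of 32 further histone genes had fewer than 16 bases after the stop codon. The 28 genes carried 6 versions, in which capitals mark the stem and lower case the loop. In each version except that of H2AC11 all 6 stem positions pair, and in H2AC11 5 pair. The first version belongs to 14 genes.
H2AC6, H2AC18, H2AC19, H2BC21, H3C10 and 9 others: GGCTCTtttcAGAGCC
H4C8 and 4 other H4 genes: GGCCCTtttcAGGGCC
H2BC5, H2BC4, H2BC7 and H3C8: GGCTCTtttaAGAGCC
H4C14, H4C15 and H4C9: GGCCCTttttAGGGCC
H3C6: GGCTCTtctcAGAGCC
H2AC11: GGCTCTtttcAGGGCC

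Promoters are shown for the 3 genes that rose and for the most abundant member. RefSeq promoter windows (GRCh38.p14) were matched for 61 of the 66 genes, and the 250 bases before the start were searched on both strands, with matches allowed to overlap. TATAAA, the core of the TATA box, was found in 67.2% of the histone promoters and 11.1% of 27305 promoters of all genes. CCAAT, the letters of the CCAAT box, was found in 83.6% against 33.0%, in every matched H1, H2A, H2B and H3 promoter and in 3 of 13 H4 promoters. ATTTGCAT, the octamer read by POU factors such as POU2F1, was found in 42.6% against 1.66%, with 14 of 17 H2B and 11 of 15 H2A promoters holding it. Capitals below mark matches to these 3 motifs on either strand, so the reverse complements are in capitals too.
H3C6, chr6:26223928-26224177, plus strand: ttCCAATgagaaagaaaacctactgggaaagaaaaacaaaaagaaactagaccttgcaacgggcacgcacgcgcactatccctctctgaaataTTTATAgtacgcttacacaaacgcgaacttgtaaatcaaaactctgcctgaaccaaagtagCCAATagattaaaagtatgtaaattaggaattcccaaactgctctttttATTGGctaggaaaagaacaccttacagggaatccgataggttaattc
H4C8, chr6:26285535-26285784, minus strand: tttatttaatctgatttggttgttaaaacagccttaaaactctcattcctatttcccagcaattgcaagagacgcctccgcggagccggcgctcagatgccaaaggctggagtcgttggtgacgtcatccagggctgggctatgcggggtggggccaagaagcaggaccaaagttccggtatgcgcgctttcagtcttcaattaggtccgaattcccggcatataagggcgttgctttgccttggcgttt
H2BC5, chr6:26157871-26158120, plus strand: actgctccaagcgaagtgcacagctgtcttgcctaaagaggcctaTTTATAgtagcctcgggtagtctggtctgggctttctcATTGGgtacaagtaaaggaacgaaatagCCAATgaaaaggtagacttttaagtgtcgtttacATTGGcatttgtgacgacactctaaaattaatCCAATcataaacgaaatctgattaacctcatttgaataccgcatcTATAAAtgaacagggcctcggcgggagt
H2BC11, chr6:27132796-27133045, minus strand: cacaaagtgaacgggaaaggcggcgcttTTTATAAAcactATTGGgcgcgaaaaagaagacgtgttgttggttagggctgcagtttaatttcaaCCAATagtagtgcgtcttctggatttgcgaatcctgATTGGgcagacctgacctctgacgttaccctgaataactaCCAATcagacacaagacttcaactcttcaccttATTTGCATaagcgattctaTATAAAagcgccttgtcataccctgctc
The H4C8 window held none of the 3 motifs and the H2BC11 window all 3.

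The libraries held 11737837 to 40039584 estimated counts. Levels are given in CPM (counts divided by a library size that edgeR adjusts with its TMM method) or, where genes are compared per length, in TPM. GANAB, the gene of the glucosidase II catalytic subunit, stood at 661 to 825 CPM in control and at 231 to 238 CPM in knockdown libraries. It fell by 1.63 on the log2 scale (edgeR adjusted p = 0.00239). The control libraries differed more among themselves than the knockdown libraries: the biological coefficient of variation was 52.3% in control and 10.7% in knockdown. Epithelial KRT8 and KRT18 and mesenchymal VIM were above 80 CPM in every library, while the other 7 urothelial and epithelial markers stayed under 23 CPM in every library, with UPK3A listed at 0. Of the 4 mesenchymal markers VIM was higher in the knockdown (log2 1.08, edgeR adjusted p = 0.0206) and CDH2 lower, at 48.7, 2.79 and 81.9 CPM in control and 1.27 to 1.83 CPM in knockdown (log2 -4.91, edgeR adjusted p = 0.0327); with 1 library left out they passed in 3 and 1 of 6 fits. FN1 and ZEB1 did not pass. Of 4 smooth muscle markers 3 were higher in the knockdown, with the summed level of the 4 at 74.9 to 154 TPM in control and 336 to 362 TPM in knockdown. Of 11 tested endothelial, immune and fibroblast markers none passed the edgeR test (2 at an unadjusted p under 0.05, 2 with DESeq2). Their summed levels were 0.150 to 0.718 TPM in control and 1.19 to 2.15 TPM in knockdown for the endothelial list, 7.51 to 37.4 and 50.8 to 66.4 TPM for the fibroblast list, where LUM was listed at 0, and 54.8 to 209.6 and 45.3 to 49.8 TPM for the immune list. The part of host cells in the results below was not tested.

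Library composition differed between control libraries and is given before the histone values, since most of these mRNAs lack poly(A). Mitochondrial ribosomal RNA (MT-RNR1 and MT-RNR2) took 29.2%, 1.098% and 0.928% of counts in control libraries 1, 2 and 3 and 2.43%, 2.11% and 2.37% in knockdown libraries 1, 2 and 3. Small non-coding RNA took 0.269%, 0.00803% and 0.0179% in control and 0.0324%, 0.0273% and 0.0264% in knockdown. RN7SL1, the signal recognition particle RNA and the small RNA gene with the highest mean count over the 6 libraries, was at 1192 CPM in control library 1, at 20.1 CPM in control library 2 and at 27.2 to 44.1 CPM in the knockdown, where SNORD3A (45.7 to 64.3 CPM) and RN7SK (79.9 to 90.1 CPM) were above it. The histone genes together took 0.0812%, 0.0131% and 0.154% of counts in control and 0.129%, 0.125% and 0.125% in knockdown. Control library 2 was the lowest of the 6 both in histone and in small RNA. Control library 1 was the highest in small RNA and mitochondrial rRNA, but control library 3 was the highest in histone RNA. The 3 knockdown libraries lay within the control range for histone, mitochondrial ribosomal and small non-coding RNA. Mitochondrial mRNA lay above it, at 3.98%, 3.66% and 4.16% in knockdown against 3.41%, 3.36% and 1.25% in control libraries 1, 2 and 3, and the part of RNA selection in the histone values was not tested.

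**Figure D1:**
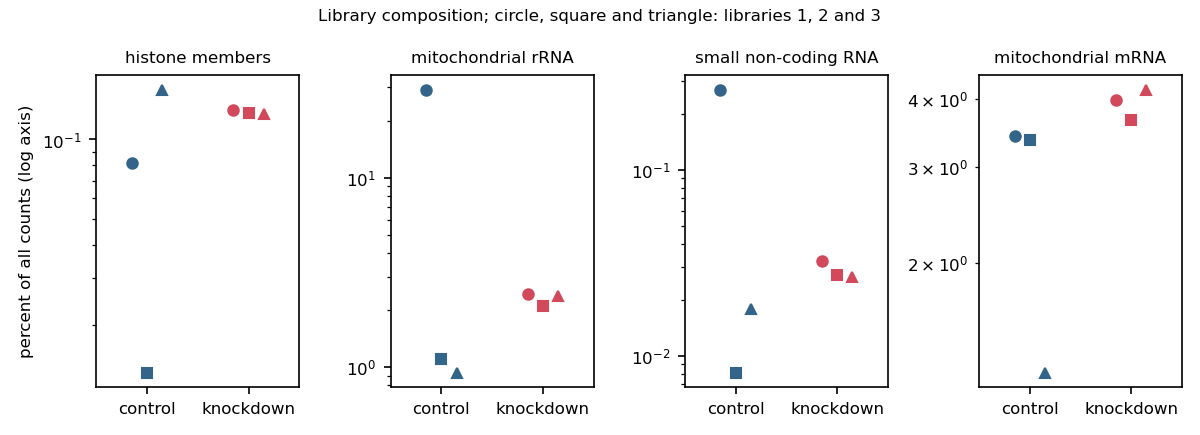
Share of all counts (percent, log axis, each panel with its own range) taken by the histone genes, mitochondrial rRNA, small non-coding RNA and mitochondrial mRNA; each point is 1 library (circle, square and triangle for 1, 2 and 3). Control library 2 holds 0.0131% histone and 0.00803% small RNA counts, the lowest of the 6 in both, while the knockdown libraries sit close together.

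Across the set, most histone genes were higher in the knockdown, few passed the test, and the most abundant one had a fold change near 0. Of the 66 genes, 47 passed the filter on low counts and were tested, 9 were in the count table but too low to test, and 10 were listed only in the TPM table, 6 of them at 0 in every library. With edgeR's quasi-likelihood test, 4 of the 47 passed an adjusted p of 0.05, 3 higher and 1 lower, or 8.51%. This is close to the background, since 8.31% of all 19430 genes tested passed (4.59% higher and 3.72% lower). The fitted log2 fold change (knockdown over control) was above 0 for 40 of the 47, against 52.1% of all genes, and its median was 0.99, against 0.03. This median depended on control library 2: without it the median was 0.54, with 37 of 54 tested histone genes above 0. Without control library 1 or 3 the median was 1.51 or 0.95, with 46 of 50 or 42 of 53 above 0. In 29 of the 47 (61.7%) every knockdown library was above every control library, against 21.9% of all genes; the reverse held for 1, against 15.7% (37.6% of all genes in either direction). A gene could pass the filter through its higher group alone, so these counts describe the tested genes and not all 66. Of the 20 genes with a mean of at least 5 CPM over the 6 libraries, 19 had a fold change above 0 and 16 did not overlap. Control library 2 was below both other control libraries in 35 of the 47 (74.5%), against 38.6% of all genes, and tied for the lowest in 3 more. For genes averaging 1 CPM or more within a group, the median coefficient of variation of the tested histone genes was 70.4% in control and 10.4% in knockdown libraries, against 27.8% and 6.63% for all genes. Leaving out any 1 knockdown library left no histone gene called higher, and 0.266% to 0.410% of all genes tested were then called higher (edgeR). At an unadjusted edgeR p under 0.05 with all libraries, 14 histone genes were higher and 1 lower. DESeq2 called 11 higher and 1 lower, or 21.4% of the histone genes it tested, against 17.0% of all genes. Leaving out control library 2 gave 11 higher and 4 lower, or 27.8% of the histone genes tested, close to the 27.7% of all genes called in that fit. Called higher were 20.4% of the histone genes and 13.9% of all genes. H2AC6, H2BC12 and H3C10 were among the higher ones (edgeR adjusted p = 0.000465, 0.00468 and 0.00946) and H1-5 and H4C11 among the lower ones (edgeR adjusted p = 0.0275 and 0.0470). In bulk RNA, fewer expressing cells and less RNA per cell cannot be told apart.

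**Figure D2:**
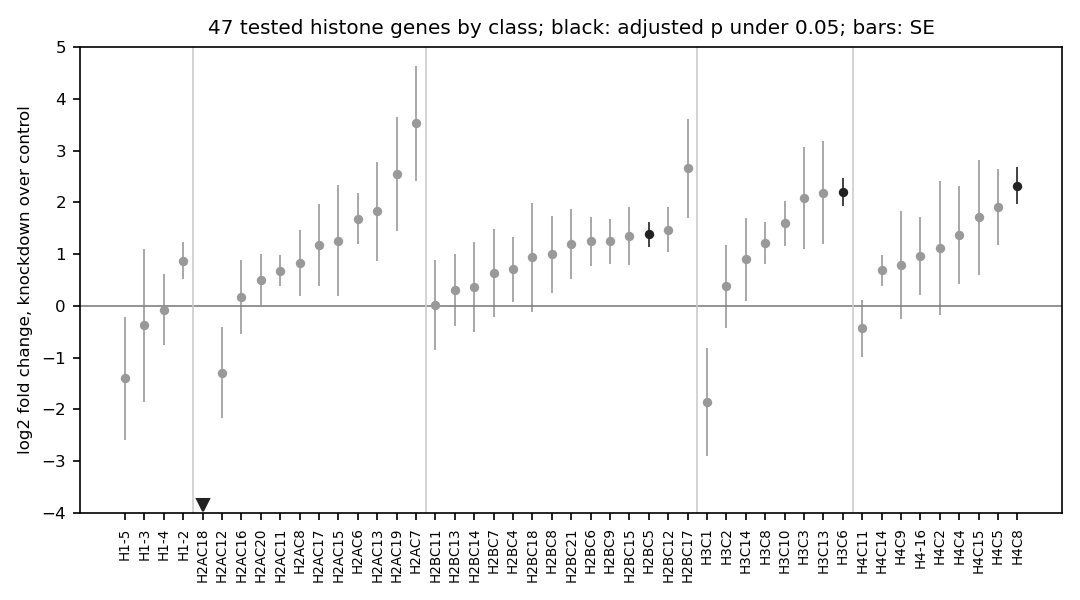
Fitted log2 fold change of knockdown over control with its SE for the 47 tested histone genes, ordered within H1, H2A, H2B, H3 and H4; black points passed an adjusted p of 0.05. H3C6, H4C8 and H2BC5 are the black points above 0, and the triangle at the lower edge is H2AC18, whose fitted value of -11.2 is off the axis because all 3 knockdown libraries hold 0 counts.

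Among the H3 genes, whose products form the inner tetramer of the nucleosome with H4, H3C6 rose. H3C6 (ENSG00000274750, chromosome 6, 26224199 to 26227473, plus strand) was at 3.75, 2.37 and 2.39 CPM in control and 12.6, 13.5 and 13.3 CPM in knockdown libraries. The lowest knockdown value was well above the highest control value, and the rise was 4.59-fold (log2 2.20, SE 0.270, edgeR adjusted p = 0.00698; 0.0662 to 0.0707 without any 1 knockdown library). H3C10 was the most abundant H3 gene per length (mean 15.97 TPM over the 6 libraries) and stood at 6.36, 2.84 and 11.5 CPM in control and 19.6, 20.98 and 21.2 CPM in knockdown. Its groups did not overlap either, but it did not pass (log2 1.59, edgeR adjusted p = 0.0680). H3C1 lay the other way, at 0.809, 0.158 and 1.56 CPM in control and 0.199, 0.0509 and 0.424 CPM in knockdown, with overlapping groups (log2 -1.86, edgeR adjusted p = 0.316). H3C2 and H3C3 stayed under 1.6 CPM in every library and did not pass. In all, 7 of 8 tested H3 genes had a fold change above 0. The 12 H3 genes encode few proteins: 8 of the 10 with a model share the same protein of 136 residues.

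Among the H4 genes, the partners of H3, H4C8 rose. H4C8 (ENSG00000158406, chromosome 6, 26277609 to 26285638, minus strand) was at 2.54, 1.73 and 4.36 CPM in control and 13.7, 13.9 and 15.1 CPM in knockdown libraries. Its groups were far apart, and the rise was 5.01-fold (log2 2.32, SE 0.351, edgeR adjusted p = 0.0130; 0.0862 to 0.0983 without any 1 knockdown library). Of the 15 H4 genes, 14 encode the same protein of 103 residues, and H4C14 and H4C15 share their whole coding DNA, so reads from it cannot be assigned to 1 of them. H4C14 was at 9.12, 7.83 and 4.53 CPM in control and 10.9, 13.2 and 10.6 CPM in knockdown, and H4C15 at 0.00, 3.31 and 6.09 CPM in control and 11.9, 10.6 and 7.30 CPM in knockdown. Singly neither passed (edgeR adjusted p = 0.193 and 0.388). Summed, the pair stood at 9.12, 11.1 and 10.6 CPM in control and 22.9, 23.8 and 17.9 CPM in knockdown, and this sum was 2.09-fold higher (log2 1.06, SE 0.194, edgeR adjusted p = 0.0212). The pair was summed after seeing the data, and this fit was not repeated with a library left out. Both genes overlap an H3 gene on the opposite strand, and no source used here says whether counting used strand. H4C11, the most abundant H4 gene per length (mean 29.5 TPM), was at 10.9, 1.998 and 6.996 CPM in control and 5.56, 4.20 and 4.92 CPM in knockdown, inside the control range (log2 -0.44, edgeR adjusted p = 0.672). It shares its coding DNA with H4C12, which was listed at 0.

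The H2B genes, whose products pair with H2A on the outside of the tetramer, held the most abundant member and 1 that rose. H2BC5 (ENSG00000158373, chromosome 6, 26158146 to 26171349, plus strand) was at 17.3, 10.9 and 20.99 CPM in control and 45.0, 40.7 and 42.6 CPM in knockdown libraries. It rose 2.61-fold (log2 1.39, SE 0.241, edgeR adjusted p = 0.0187; 0.0999 to 0.118 without any 1 knockdown library), with no overlap between groups. The pseudogene LARP1P1 overlaps it on the same strand and another gene on the opposite strand, so its counts are uncertain to that extent. H2BC11 (ENSG00000124635, chromosome 6, 27125897 to 27132750, minus strand) had a mean of 3392 TPM over the 6 libraries and made up 58.2% to 92.0% of the TPM of all 66 genes. It was at 795, 43.6 and 1227 CPM in control and 718, 685 and 682 CPM in knockdown. Control libraries 1 and 3 were thus above the knockdown range and control library 2 far below it, and the fold change was near 0 (log2 0.01, SE 0.876, edgeR adjusted p = 0.995). Without control library 2 it was -0.53 (edgeR adjusted p = 0.0502).

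H2BC12 and H2BC21, the other abundant H2B genes, were higher in each knockdown library than in any control library but did not pass. H2BC12 was at 11.73, 4.47 and 18.2 CPM in control and 32.1, 30.2 and 32.1 CPM in knockdown (log2 1.47, edgeR adjusted p = 0.0795). H2BC21 was at 48.3, 4.26 and 28.6 CPM in control and 64.2, 55.5 and 65.4 CPM in knockdown (log2 1.19, edgeR adjusted p = 0.320). H2BC17 had the largest fitted fold change of the class at a low level, 0.368, 0.00 and 0.247 CPM in control and 1.09, 1.10 and 1.84 CPM in knockdown (log2 2.66, edgeR adjusted p = 0.131). All 14 tested H2B genes had a fold change above 0, against 52.1% of all genes. In 10 (71.4%) the groups did not overlap with knockdown higher, against 21.9% of all genes.

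Among the H2A genes, 2 copies with the same coding DNA gave opposite values. H2AC18 (ENSG00000203812, chromosome 1, 149842188 to 149842736, minus strand) was at 9.53, 4.10 and 15.97 CPM in control and had 0 counts in all 3 knockdown libraries. It was the 1 member called lower (edgeR adjusted p = 0.00811; 0.0518 without knockdown library 1) and was at least 133.6-fold lower when 3 counts are taken as the floor of each knockdown library. Its neighbour H2AC19 (ENSG00000272196, chromosome 1, 149851061 to 149851624, plus strand) was at 14.6, 0.00 and 3.70 CPM in control and 38.2, 35.4 and 36.3 CPM in knockdown (log2 2.55, edgeR adjusted p = 0.193). Reads from the shared coding DNA are split between the copies by estimate, and their printed stem-loops are the same too. The sum of both copies was 24.2, 4.10 and 19.7 CPM in control and 38.2, 35.4 and 36.3 CPM in knockdown, 2.29-fold higher without passing (log2 1.20, SE 0.534, edgeR adjusted p = 0.209). With the copies summed, no member was called lower.

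**Figure D3:**
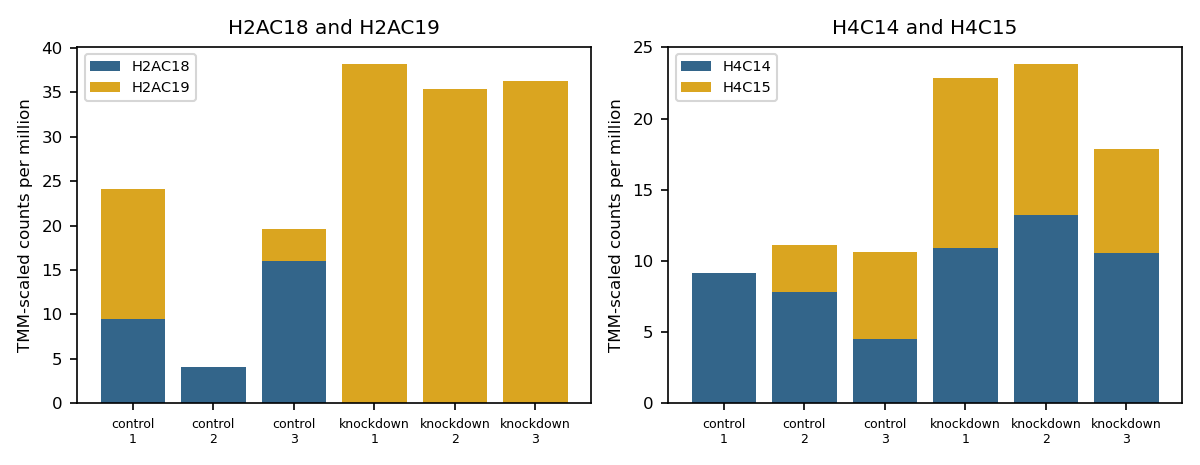
TMM-scaled CPM in each library for the copies with identical coding DNA, stacked so that the bar height is the pair's sum. The H2AC18 part is 0 in all 3 knockdown libraries while the pair's sum is 35.4 to 38.2 there, and the H4C14 and H4C15 sum is 9.12 to 11.1 in control and 17.9 to 23.8 in knockdown libraries.

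H2AC6 was the H2A gene with the highest counts, at 33.4, 8.46 and 41.7 CPM in control and 82.5, 92.7 and 92.4 CPM in knockdown. The knockdown values lay well above the control values, but the gene did not pass (log2 1.68, edgeR adjusted p = 0.0786). H2AC8 was at 7.36, 1.47 and 13.5 CPM in control and 12.6, 12.9 and 13.7 CPM in knockdown, with control library 3 inside the knockdown range (log2 0.83, edgeR adjusted p = 0.462). H2AC7 had the highest fitted log2 fold change among the members, at a level near detection, 0.221, 0.00 and 0.00 CPM in control and 0.844, 1.38 and 0.989 CPM in knockdown (log2 3.52, edgeR adjusted p = 0.0924). Of 12 tested H2A genes 10 had a fold change above 0, against 52.1% of all genes. In 6 (50%) the knockdown values were all the higher ones, against 21.9% of all genes.

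None of the 4 tested linker histone genes passed, and their fold changes lay on both sides of 0. H1-2 was the most abundant (mean 55.5 TPM), at 22.5, 7.67 and 17.1 CPM in control and 31.2, 29.4 and 26.1 CPM in knockdown, higher in each knockdown library but not past the threshold (log2 0.87, edgeR adjusted p = 0.171). H1-5 was at 2.54, 0.00 and 2.39 CPM in control and 0.496, 0.458 and 0.895 CPM in knockdown (log2 -1.40, edgeR adjusted p = 0.512). H1-4 was at 4.41, 0.631 and 1.399 CPM in control and 1.63 to 2.56 CPM in knockdown, and H1-3 at 3.05, 0.00 and 0.00 CPM in control and 0.769, 1.12 and 0.565 CPM in knockdown, so that control library 1 was the highest of the 6 for both genes. Their fitted log2 fold changes were -0.07 and -0.37, and both were above 0 on the TPM scales and with the replicate block; without control library 1, H1-3 passed upwards at 7.65 against 0 counts in the 2 remaining control libraries (edgeR adjusted p = 0.0482). Control library 2 was the lowest or tied for the lowest control value in all 4 tested H1 genes, and 1 of the 4 fold changes was above 0. The 6 H1 genes encode 6 different proteins.

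**Figure D4:**
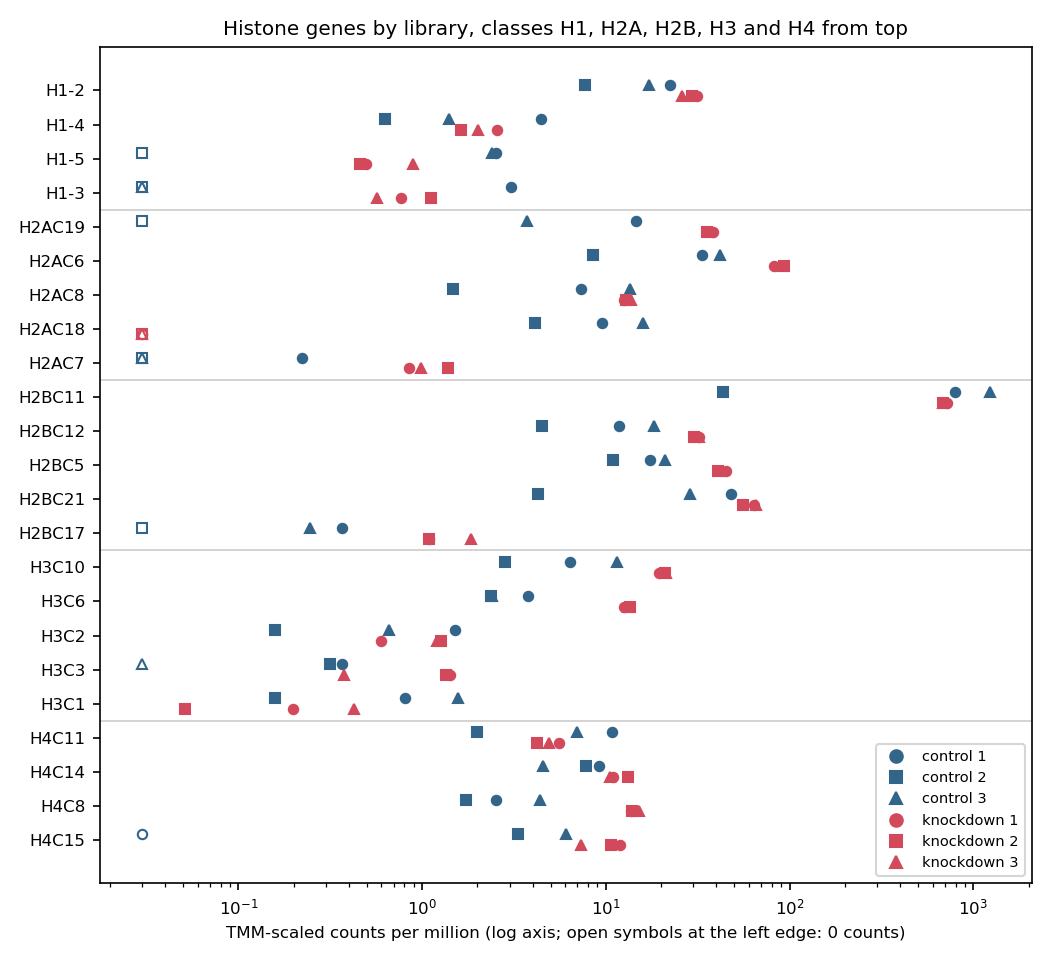
TMM-scaled CPM (log axis) of the named histone genes in each library, by class from H1 at the top to H4 at the bottom; blue symbols are control and red symbols knockdown libraries, and open symbols at the left edge stand for 0 counts. The knockdown libraries cluster within each gene, and control library 2 (blue squares) is the lowest control for most genes, among them H2BC11 at 43.6.

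Summed over all members, the histone level overlapped between the groups, and without H2BC11, a step added after seeing the data, it did not. All 66 genes came to 812, 131 and 1542 CPM of the unscaled library total in control and 1291, 1254 and 1246 in knockdown, a ratio of means of 1.53 (log2 0.61, or 0.10 without control library 2 and 1.42 without control library 3). Without H2BC11 the sum was 219, 84.8 and 272 in control and 523, 519 and 523 in knockdown, a ratio of means of 2.72. The lowest knockdown library then held 519 and the highest control library 272. With mitochondrial, ribosomal and small RNA genes taken out of the library total, this last ratio was 2.41. By class the ratio of means in unscaled CPM was 1.897 for H1, 2.89 for H2A, 1.34 for H2B (2.72 without H2BC11), 3.42 for H3 and 2.51 for H4. With mitochondrial, ribosomal and small RNA genes taken out they were, in that order, 1.64, 2.60, 1.21 (2.38 without H2BC11), 3.08 and 2.25. On that scale the H1 sum overlapped between the groups: control library 1 was at 36.2 and the knockdown libraries at 33.6 to 40.1.

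The gene models were compared next, because only a model that extends beyond the stem-loop can take reads from sequence beyond it; reads from the coding part of any transcript can match every model. A model was called long when it ran at least 100 bases past the stem-loop. All 20 genes with such a long model were tested; all 20 had a fold change above 0 (median 1.20), the groups did not overlap in 18, and 2 passed, H3C6 and H4C8. Of 36 genes whose model shows no stem-loop, 17 were tested; 12 had a fold change above 0 (median 0.50), 7 did not overlap with knockdown higher, and none passed the edgeR test (4 higher at an unadjusted p under 0.05, 3 with DESeq2). The 10 members found in the TPM table alone belong to this class. Of 8 genes whose model ends near the stem-loop, all 8 were tested, and 6 had a fold change above 0 (median 0.97). In 3 the groups did not overlap with knockdown higher, and H2BC5 passed upwards and H2AC18 downwards. Classes were set from the models that hold the stem-loop, and that of H2BC5 ends 39 bases past it. The longer H2BC5 model, of 789 bases, shows no stem-loop in the searched bases and has 384 bases after the stop codon. H2BC5 is thus not a clear member of this class. The difference between these classes was not tested. Of the 7 members known to make polyadenylated transcripts, all 7 had a fold change above 0 (median 1.19), 6 did not overlap, and H2BC5 passed. The other 40 tested members lay mostly the same way: 33 were above 0 (median 0.96), 23 did not overlap with knockdown higher, and 7.5% passed. Over all genes tested 52.1% were above 0, 21.9% did not overlap with knockdown higher and 8.31% passed.

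For single genes the ratio of count to TPM gives the mean transcript length that the reads were assigned to. This implied length was calibrated on genes with 1 transcript, where the median error was 0.339% to 2.00% by library. For H3C6 the implied length was 2674 to 2734 bases in all 6 libraries, close to its longest model of 2679 bases, which runs 1862 bases past the stem-loop, and far from its shortest coding model of 462. For H4C8 it was 1021 and 1232 bases in control libraries 1 and 2 and 1534 to 1607 in the other 4, between models of 397 and 2163 bases. For H2BC5 it was 656 to 799 bases in control and 711 to 727 in knockdown, nearer to the model of 789 than to that of 496. For H2BC11 it was 402 to 435 bases, close to the shortest model of 381 bases and far from the longest of 950.

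By position, H3C2 and H3C3 could not be placed, since GENCODE release 29 holds no model of them, and the counts below leave them out. Of the 66 genes, 32 lie in the cluster near 26 Mb of chromosome 6, 21 near 27 Mb, 10 in a cluster of chromosome 1 and the single gene H4-16 on chromosome 12. All 3 genes that rose are in the first of these, where 16 of 19 tested genes had a fold change above 0 (median 1.21). In the group near 27 Mb this held for 13 of 16 (median 0.73), and on chromosome 1 for 8 of 9 (median 0.93). Starts of 11 gene pairs pointed away from each other less than 1000 bases apart. Such neighbours can differ widely in level per length: H2BC11 and H2AC11 start 292 bases apart and had means of 3140 and 4.83 TPM in control and 3643 and 8.75 TPM in knockdown. For H2BC4 and H2AC6, 219 bases apart, the means were 9.697 and 21.7 TPM in control and 17.9 and 80.3 TPM in knockdown.

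The machinery that makes, carries and uses these histones was read from the same comparison, and its S phase part lay in the opposite direction. Of 25 S phase and replication genes, 20 fell and none rose, with all 25 fold changes below 0 (median -1.11); none of the 20 calls held without any 1 knockdown library, while 21 genes fell without control library 2. The replicative helicase genes MCM6, MCM5, MCM7 and MCM2 fell by 1.01, 1.11, 1.12 and 1.28 on the log2 scale and the ribonucleotide reductase gene RRM1 by 1.12 (edgeR adjusted p = 0.00546 to 0.00784). PCNA, the sliding clamp of replication, was at 225.8, 334.3 and 251.4 CPM in control and 145, 152 and 150 CPM in knockdown and fell by 0.86 (edgeR adjusted p = 0.0272; up to 0.169 with 1 library left out). In contrast to the histone genes, PCNA was highest in control library 2. All 15 mitosis genes fell (median -1.22; 0 to 3 without any 1 knockdown library), TTK, CDC20, BUB1, BUB1B and CENPF with the smallest p. These lists were drawn up with results of these data known, so the counts are no independent support for a direction.

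Of 18 histone chaperone and assembly genes, 5 fell and none rose (median -0.49; 0 fell without any 1 knockdown library and 10 without control library 2). They were CHAF1A, a subunit of the CAF-1 complex that deposits H3 and H4 on new DNA (log2 -1.38), NASP, which keeps the soluble pool of H3 and H4 (-0.81), the FACT subunit SSRP1 (-0.77), the histone acetyltransferase HAT1 (-0.66) and the H3.3 chaperone DAXX (-0.65). CHAF1A was at 58.1, 97.9 and 70.2 CPM in control and 29.3, 29.5 and 28.2 CPM in knockdown (edgeR adjusted p = 0.0124; up to 0.1003 with 1 library left out). Of 20 genes of histone transcription and 3′ end formation 1 fell, the cell cycle transcription factor gene E2F1 (log2 -1.01, edgeR adjusted p = 0.0404), which passed in 2 of 6 fits with 1 library left out. SLBP, which binds the stem-loop, was at 45.0, 75.3 and 43.4 CPM in control and 45.4, 45.7 and 44.1 CPM in knockdown, without passing (log2 -0.28, edgeR adjusted p = 0.495). NPAT, the coactivator of histone gene transcription, did not pass either (log2 -0.18, edgeR adjusted p = 0.645). The 3′ end genes ERI1, CPSF2, CPSF3 and SYMPK had log2 fold changes of -0.54, -0.44, -0.53 and 0.51, none past the threshold.

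Replication-independent histone variants, which are spliced, polyadenylated and made through the cell cycle, did not pass in either direction. Of 12, 11 were tested, none passed the edgeR test (median -0.35; 2 lower at an unadjusted p under 0.05, 1 with DESeq2 and 3 with limma-voom), and 9 of the 11 fold changes were below 0. H3-3B, a gene of the replacement histone H3.3, was at 343, 258 and 365 CPM in control and 394, 409 and 403 CPM in knockdown (log2 0.32, edgeR adjusted p = 0.259). H2AZ1 was at 158, 297 and 145 CPM in control and 113, 129 and 112 CPM in knockdown (log2 -0.76, edgeR adjusted p = 0.132). CENPA, the centromeric H3, had a log2 fold change of -1.14 (edgeR adjusted p = 0.0936). H1-10 and H2AZ2 were at -0.43 and -0.35 on the same scale.

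**Figure D5:**
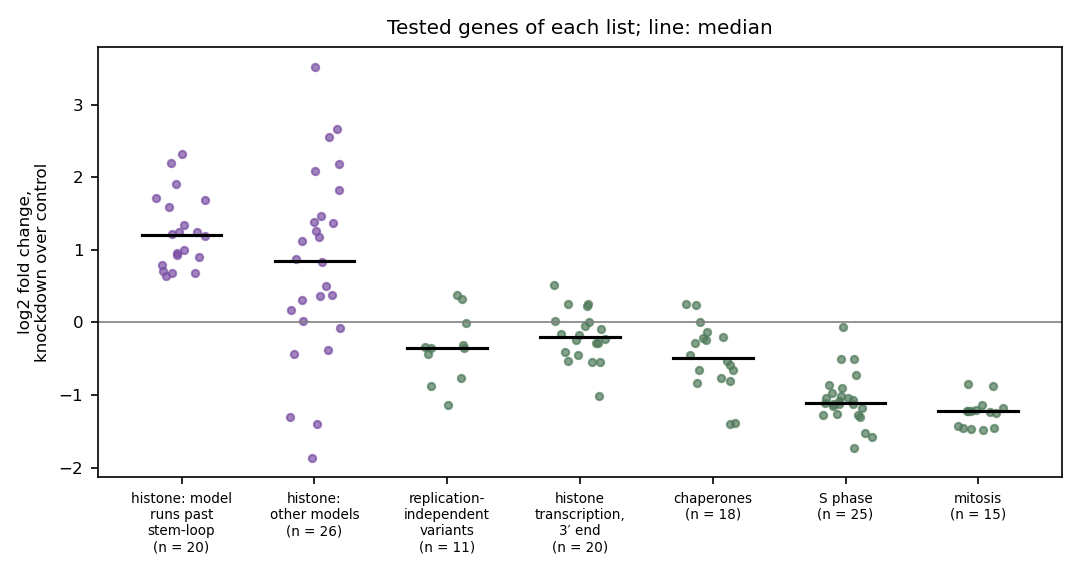
Fitted log2 fold change of knockdown over control for each tested gene (points) of the histone set, divided by gene model, and of the related lists, with the median as a line; H2AC18 is left out because its fitted value comes from 0 counts. The histone genes whose model runs past the stem-loop are all above 0 (median 1.20), and the S phase and mitosis genes are all below 0 (medians -1.11 and -1.22).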

How the data were processed

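Total RNA from 3 control and 3 knockdown libraries was extracted with TRIzol, per the labels' protocols. The submitters' processing notes name Salmon, fastp, DESeq2 and the build GRCh38, without versions; neither notes nor labels give the transcript index, the strand setting or how mouse reads were handled. The authors deposited estimated counts per gene as unnormalized whole numbers, and TPM per gene, which sum to the same total in each library.

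The members and gene lists were chosen with earlier results of these data known. All 21503 genes of the count table entered 1 fit: edgeR 4.0.16 (R 4.3.3) quasi-likelihood test, filterByExpr (2073 genes removed), TMM and Benjamini-Hochberg over 19430 genes, threshold 0.05, 2-sided, no covariate. On simulated data with 200 changed genes among these 19430, the test found 13% of the 2-fold and 80% of the 4-fold changes. The simulation gave each gene the same spread in both groups, unlike the data, where the biological coefficient of variation was 52.3% in control and 10.7% in knockdown. Library pairs differed by more than sampling noise. The histone genes named were the 4 most abundant per class by mean TPM, all that passed, and the 3 highest and 3 lowest fold changes; of other lists, up to 5 with the smallest p and a few fixed genes. The values of 1 gene under this rule are not reported here. Alternatives were other scalings, filters and tests (DESeq2 1.42.0, limma 3.58.1, log2(TPM + 1) and log2(TPM + 0.1)), a replicate block and leaving out each library. After seeing the data, genes with identical coding DNA were summed and the total was taken without H2BC11.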

Additional observations from a re-analysis of the deposited data

How the results depend on the processing

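Of the named histone genes' fold changes under the alternatives, 319 kept direction and side of the threshold, 31 passed only under the alternative, 10 no longer passed and 20 changed sign. H3C6, H4C8 and H2BC5 each passed in 14 of 17 settings; the exceptions were the fits without knockdown library 1, 2 or 3, where the highest adjusted p was 0.0707, 0.0983 and 0.118. Histone genes higher in the knockdown numbered 11 with DESeq2, 8 with limma-voom, 11 and 5 on log2(TPM + 1) and log2(TPM + 0.1), and 0 to 11 with each library left out (0 when any 1 knockdown library is left out, and 9, 11 and 5 when control library 1, 2 or 3 is). Those lower numbered 0 with the stricter filter, 0 with identical coding DNA summed and 0 to 4 with each library left out (4 without control library 2, 0 without knockdown library 1). Over all genes the calls numbered 3660 with DESeq2, 3716 with limma-voom, 828 and 526 on the TPM scales, 566 with the replicate block and 62 to 5604 with each library left out (5604 with control library 2 left out, and 62, 115 and 88 with knockdown library 1, 2 or 3 left out). S phase genes lower numbered 0 on both TPM scales, 11 with the replicate block and 0 to 21 with each library left out; mitosis genes lower numbered 2 and 0 on the TPM scales and 0 to 15 with each library left out. As shares of the genes tested, calls in either direction took 21.4% of histone genes against 17.0% of all genes with DESeq2. They took 19.1% of both with limma-voom and 27.8% against 27.7% without control library 2. On log2(TPM + 1) and log2(TPM + 0.1) they took 23.5% against 5.31% and 11.8% against 3.38%. GANAB on log2(TPM + 0.1) was -1.26 (limma adjusted p = 0.0553). The cause of these changes was not tested.

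Signs changed for members near 0 or with control libraries at 0 counts. H1-3 was 0.29 with limma-voom, 0.73 and 2.50 on the TPM scales, 2.24 with the replicate block and 7.65 without control library 1 (-0.97 without control library 2). H1-4 was 0.41 and 0.56 on the TPM scales, 0.34 with the block and, with 1 library left out, from -0.52 to 1.03 (0.081 without knockdown library 2). H2BC11 was -0.0796 with limma-voom and, with 1 library left out, from -0.53 without control library 2 to 0.69 (-0.0043 without knockdown library 1). H4C11 was 0.0392 and 0.0490 on the TPM scales and from -0.87 to 0.13 with 1 library left out, and H1-5 was 0.20 on log2(TPM + 0.1). H3C2 was -0.0695 with limma-voom and from -0.12 to 1.37 with 1 library left out, and H2AC18 was 1.20 with identical coding DNA summed. Same-numbered libraries deviated together with correlations of 0.0022, 0.0171 and 0.0218, and the other pairs with -0.0185 to 0.0019. The knockdown libraries varied little, so values this small cannot decide whether the numbers pair the libraries. Summing genes with identical proteins leaves the histone total unchanged by construction. At these depths a histone gene under about 1 CPM rested on few counts. In the simulation, which gave both groups the same spread, 13% of the 2-fold changes were found. In the data themselves 20 of 25 S phase genes and all 15 mitosis genes passed, with median log2 fold changes of -1.11 and -1.22 over each list. Both lists were drawn up with results of these data known, so these counts do not measure what share of changes the test finds.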
